A study of Mus musculus with 6 samples.

Results

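The 10 genes described here are 9 genes of histone variants that are made outside the replication-dependent histone clusters, and Slbp, the gene of the stem-loop binding protein. They were taken by symbol from the count table of 31017 genes, and all 10 were present and deep enough to be tested among 14268 genes. The cells were mouse Th17 cells, helper T cells that secrete interleukin 17, differentiated in culture. RNA from 3 control cultures (genotype WT in the labels) and 3 RTF1-deficient cultures (genotype KO) was sequenced. RTF1 accompanies RNA polymerase II with the PAF1 complex and is needed for the ubiquitin mark on H2B. How Rtf1 was removed, the strain, age and sex of the mice and the time in culture are not given in the sources used here, nor whether the 3 cultures of a group came from separate animals, so p-values measure the spread between these libraries.

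Most histone mRNA is made in S phase from clustered genes, ends in a stem-loop in place of a poly(A) tail, and is bound at that stem-loop by SLBP, which carries it through 3′ end formation, export, translation and decay. Replacement variants are made throughout the cell cycle from solitary genes, mostly with introns and poly(A) tails. They include H2A.Z (H2afz and H2afv), H2A.X (H2afx), macroH2A1 (H2afy), H2A.J (H2afj), H3.3 (H3f3a and H3f3b) and the linker histones H1.0 (H1f0) and H1x (H1fx). H2A.Z marks the nucleosomes next to promoters, H2A.X is phosphorylated at DNA breaks, macroH2A carries a large globular domain, and H3.3 is laid down at transcribed and regulatory chromatin without replication.

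The RNA sequence of the stem-loop shows which of the genes share the feature that SLBP reads. The histone stem-loop consensus was found in the annotated transcripts of 1 of the 10 genes, H2afx, whose mRNA is known to occur both with the stem-loop end and with a poly(A) tail. It was found in 46 of 70 annotated replication-dependent histone genes (65.7%) and in 0.463% of all 55450 genes of the annotation, whose transcripts differ in length. The match in H2afx lies in the 3′ UTR on the plus strand (GRCm38, chr9:44335240-44335255), and is shown beside that of Hist1h4d, on the plus strand at chr13:23581950-23581965, the replication-dependent histone gene with a match that had the highest mean level in control. Capitals mark the consensus match.
H2afx: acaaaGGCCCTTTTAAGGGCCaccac
Hist1h4d: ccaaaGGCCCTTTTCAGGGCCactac

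The H3.3 pair is shown because its genes moved in opposite directions while encoding the same protein. Their coding sequences are 408 bases each and identical at 313 bases (76.7%), and 81 of the 95 differing bases fall on the third position of a codon. The longest identical run was 23 bases, so reads longer than that from the coding part can be told apart between the genes. The first 90 bases of each coding sequence follow, from the start codon, with the 20 differing bases in capitals.
H3f3a coding: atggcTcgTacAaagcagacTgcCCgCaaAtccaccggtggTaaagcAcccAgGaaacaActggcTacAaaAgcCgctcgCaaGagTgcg
H3f3b coding: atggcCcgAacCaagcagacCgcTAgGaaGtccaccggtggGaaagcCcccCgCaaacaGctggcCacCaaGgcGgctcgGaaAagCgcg

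The 250 bases before the RefSeq start of each H3.3 gene hold different motifs. RefSeq promoters (GRCm38.p6) matched 9 of the 10 genes. Both windows lie inside the gene as GENCODE annotates it, which begins further upstream. CCAAT and TATAAA were searched on both strands, and no matches overlap in the windows shown. The H3f3b window (chr11:116024505-116024754, minus strand) holds 4 CCAAT matches, 214, 190, 167 and 97 bases before the start, and TATAAA 27 bases before it. The H3f3a window (chr1:180813606-180813855, minus strand) holds CCAAT on the opposite strand 24 bases before the start, no TATAAA, and 4 matches to GGGCGG, a motif absent from the H3f3b window. Of 32851 promoter windows of this length, 33.8% hold CCAAT, 12.4% TATAAA and 32.7% GGGCGG. Such matches describe letters and not bound factors. Capitals mark CCAAT and TATAAA on either strand.
H3f3a promoter: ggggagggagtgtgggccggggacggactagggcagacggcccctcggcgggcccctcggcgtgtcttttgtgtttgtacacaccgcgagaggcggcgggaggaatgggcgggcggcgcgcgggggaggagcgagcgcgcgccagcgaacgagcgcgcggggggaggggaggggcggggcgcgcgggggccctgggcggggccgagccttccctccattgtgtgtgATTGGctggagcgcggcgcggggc
H3f3b promoter: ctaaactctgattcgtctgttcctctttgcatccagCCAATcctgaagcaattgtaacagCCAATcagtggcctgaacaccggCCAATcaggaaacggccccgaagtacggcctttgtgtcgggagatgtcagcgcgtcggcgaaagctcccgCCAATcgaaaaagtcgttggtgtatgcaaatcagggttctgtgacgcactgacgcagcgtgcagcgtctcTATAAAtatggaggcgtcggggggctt

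Libraries held 16489813 to 51271226 counts. Rtf1 checked the labels, at 88.3 to 94.0 CPM (counts at a common library total, adjusted between libraries by TMM factors) in control and 26.2 to 45.3 CPM in KO, or 37.2% of the control mean. Replicate 3 of each group carried 638 to 4462 counts for each of 4 Y-linked genes where the other libraries had at most 3, so the libraries differ in sex, and none of the 10 genes lies on a sex chromosome. T cell and Th17 markers were present in every library (summed level 3174 to 3855 CPM in control and 2048 to 2506 CPM in KO). The sum hides opposite changes: by the test below, 4 of these 9 genes were called lower in KO and 2 higher. Over all tested genes 22.9% were called lower and 23.2% higher. The other marker lists held 5 genes each, and their sums cover tested genes only. These were 2 for B cells, 2 for myeloid cells, 1 for erythroid cells and 3 for CD8 and NK cells. Sums were low in both groups for B cells (1.20 to 2.90 and 1.52 to 2.43 CPM), myeloid cells (0.618 to 0.702 and 1.39 to 2.80 CPM) and erythroid cells (1.09 to 2.86 and 0.908 to 2.03 CPM). The CD8 and NK list (6.93 to 10.5 and 6.49 to 11.8 CPM) was mostly Cd8b1, with Ncr1 and Klrb1c at 0. In KO, 1 myeloid gene and 1 CD8 and NK gene were called higher and 1 B cell gene lower. Untested Lyz2 held 0, 2 and 4 counts in control replicates 1 to 3 and 46, 11 and 8 in KO, at most 1.75 CPM. Eomes held 1, 8 and 3 counts in control and 35, 41 and 44 in KO.

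Loss of RTF1 was accompanied by lower mRNA of H2afx, H2afv, H3f3b and H2afy and higher mRNA of H2afj and H3f3a. With edgeR's quasi-likelihood test over all 14268 genes, called at an adjusted p under 0.05, 4 of the 10 genes were lower in KO and 2 were higher. The background was high, since 46.1% of all tested genes were called, 22.9% lower and 23.2% higher. The groups did not overlap for 7 of the 10 genes, against 57.9% of all tested genes, and neither share sets the variant genes apart. Their median log2 fold change was −0.47, beside 0.013 over all tested genes. In bulk RNA, fewer cells of a kind and less RNA per cell cannot be told apart.

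**Figure D1:**
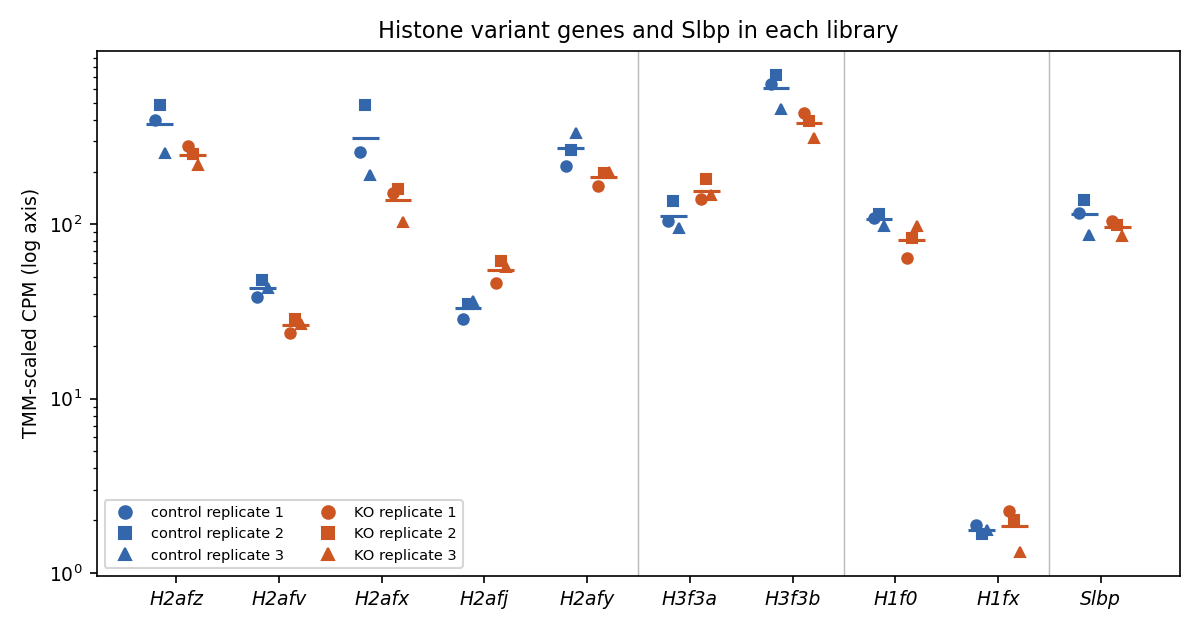
TMM-scaled CPM on a log axis for the 10 genes, with each library as a point (circle, square and triangle for replicates 1, 2 and 3), control in blue, KO in orange, and horizontal lines at the group means. By control mean, H3f3b, H2afz and H2afx stand highest. In KO the means of H2afy (188 CPM) and H3f3a (156 CPM) lie above that of H2afx (138 CPM). H1fx lies near 2 CPM, and the KO points of H2afj and H3f3a lie above all control points of the same gene.

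Among the H2A variants, H2afx showed the largest change. In the order of replicates 1, 2 and 3, used for every gene below, its level was 260, 486 and 191 CPM in control and 151, 159.5 and 104 CPM in KO. The groups did not overlap, KO being lower, although control replicate 2 stood far above the other controls. Group means were 312 ± 154 and 138 ± 30.0 CPM (SD, n = 3). H2afx thus fell by 1.18 on the log2 scale, or was 2.26-fold lower (SE 0.319 of the log2 value, adjusted p = 0.0158 by edgeR). Without control replicate 2 the log2 fold change shrank to −0.72 and remained called, and without KO replicate 3 it was −1.01 with an adjusted p of 0.0548.

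The 2 genes of H2A.Z differ greatly in level. H2afz held 396, 485 and 256 CPM in the controls and 280.5, 253 and 219 CPM in KO. Control replicate 3 fell among the KO libraries, and the difference did not pass the test (log2 fold change −0.59, SE 0.219, edgeR adjusted p = 0.0515). It passed with the replicate number as a block (−0.55, adjusted p = 0.00852), with upper-quartile factors, without a filter on low counts, by DESeq2, with the libraries numbered 1 and 2 alone (−0.73, adjusted p = 0.00416) and without control replicate 3 (−0.87). H2afv, the less abundant gene, held 38.3, 47.8 and 43.1 CPM in control and 23.8, 28.8 and 27.0 CPM in KO, with no overlap. It fell by 0.70 on the log2 scale (SE 0.138, adjusted p = 0.00388), and this call held in each of the 14 alternative fits.

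Within a library, H2afz supplied 91.2%, 91.0% and 85.6% of the H2A.Z counts in control and 92.2%, 89.8% and 89.0% in KO. The groups overlapped, and the mean log2 ratio of H2afz to H2afv differed by 0.14 (two-sided exact permutation test, p = 0.8; with 3 libraries against 3 it cannot go below 0.1). Its sign turned without control replicate 3 (−0.12) and without KO replicate 1 (−0.016). As a sum, both genes held 422 ± 117 CPM in control and 277 ± 29.5 CPM in KO (SD, n = 3), or 65.8% of control.

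H2afj was the gene of the group that rose most. Its control libraries held 28.8, 35.2 and 36.1 CPM and its KO libraries 46.1, 61.9 and 57.3 CPM, with no overlap. The log2 fold change was 0.72 (SE 0.152; adjusted p = 0.00518 by edgeR), and it stayed called in all 14 alternative fits, between 0.56 and 0.83. H2afy, the macroH2A1 gene, went the other way, from 217, 267 and 335 CPM in control to 167, 198 and 199 CPM in KO. The groups did not overlap, and control replicate 3 was the highest library here, unlike for H2afx and H2afz. H2afy fell by 0.54 on the log2 scale (SE 0.168, adjusted p = 0.0276). With 1 library left out, the call was lost in 4 of 6 fits (those without control replicate 2 or any KO library) and with the libraries numbered 1 and 2 alone (−0.41, adjusted p = 0.0554).

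The H3.3 genes changed in opposite directions. H3f3b, the most counted of the 10 genes, held 636, 724 and 461 CPM in control and 436, 392 and 313 CPM in KO. H3f3a held 105, 136 and 95.7 CPM in control and 140, 182 and 147 CPM in KO. Neither gene's groups overlapped, though control replicate 2 of H3f3a lay close under the lowest KO library. H3f3b fell by 0.67 (SE 0.192, edgeR adjusted p = 0.0195) and H3f3a rose by 0.48 (SE 0.162, adjusted p = 0.0382) on the log2 scale. With 1 library left out, each call was lost in 4 of 6 fits and kept in 2 (lost for H3f3b without either of control replicates 1 and 2 or KO replicates 2 and 3, and for H3f3a without either of control replicates 1 and 3 or KO replicates 2 and 3). In its lost fits H3f3b was at −0.72 to −0.54, with adjusted p of 0.0519 to 0.0735. H3f3a shrank to 0.31 without control replicate 3, and its call was also lost with DESeq2 size factors (0.46, adjusted p = 0.0533), in the DESeq2 test and with the libraries numbered 1 and 2 alone (0.41, adjusted p = 0.0710).

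The ratio of the H3.3 genes within a library does not depend on the scaling between libraries. H3f3a made up 14.2%, 15.8% and 17.2% of the H3.3 counts in the control libraries and 24.3%, 31.7% and 32.0% in the KO libraries. Every KO library thus lay above every control library, and KO replicate 1 was the KO library nearest to control. The log2 ratio of H3f3a to H3f3b averaged −2.42 ± 0.166 over the control and −1.28 ± 0.311 over the KO libraries (SD, n = 3). These differ by 1.15, or 2.21-fold (two-sided exact permutation test, p = 0.1, the lowest value possible here; adjusted p = 0.3 over the 3 ratios computed). It lay between 1.05 and 1.33 when any library was left out. The summed level of both genes was 719 ± 153 CPM in control and 537 ± 66.5 CPM in KO (SD, n = 3), or 74.6% of control, and the 3 KO sums (576, 575 and 460 CPM) overlapped control replicate 3 (556 CPM).

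**Figure D2:**
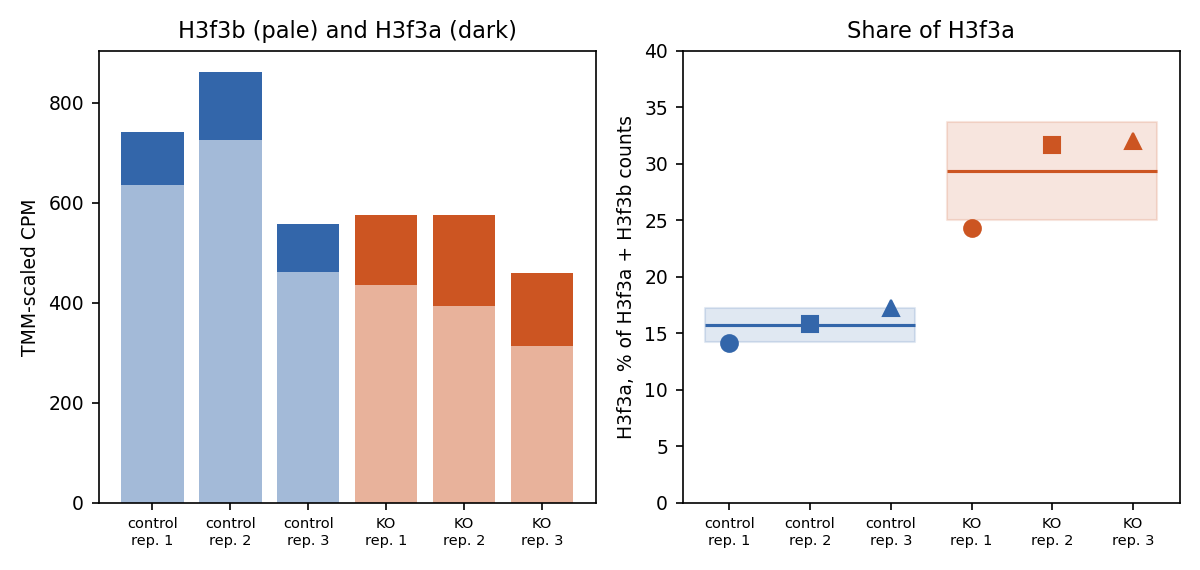
Left, stacked bars of H3f3b (pale) and H3f3a (dark) in TMM-scaled CPM for each library. Right, H3f3a as a percent of the counts of both genes, with lines at the group means and shading of 1 SD (n = 3): the control libraries lie between 14.2% and 17.2% and the KO libraries between 24.3% and 32.0%.

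Reads at H3f3a could also come from other annotated genes. Other annotated transcripts contain 27.1% of its 50-base stretches, mainly those of Gm17275, which overlaps it on the opposite strand and held 87 to 327 counts per library, against 1728 to 6820 for H3f3a. Gm17275 held 87, 103 and 246 counts in control and 193, 327 and 144 in KO. Relative to library totals, every KO library lay above every control library, given without a test. The antisense gene H3f3aos, which overlaps the start of H3f3a, rose too (1.15 ± 0.544 to 3.85 ± 1.10 CPM, SD over n = 3; log2 value up by 1.75, adjusted p = 0.0104 by edgeR). Without a stated strand setting, reads from H3f3a and these antisense genes cannot be told apart where they overlap. H2afz shares 35.4% of its stretches with other genes, mainly Tmcc1, and H3f3b shares 6.86%, H2afx 9.66%, H2afj 7.002%, H2afy 5.94%, H1f0 5.68%, H1fx 14.04%, Slbp 8.80% and H2afv none.

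The linker histone genes did not pass the test. H1f0 held 109, 115 and 98.3 CPM in control and 64.2, 83.1 and 97.9 CPM in KO, and KO replicate 3 lay just under control replicate 3. Its log2 fold change was −0.39 (SE 0.157; adjusted p = 0.0677 by edgeR), and it passed in the fit with the replicate block (−0.41, adjusted p = 0.0341), without a filter (−0.41), with the libraries numbered 1 and 2 alone (−0.60, adjusted p = 0.00732) and without either library numbered 3. H1fx, with only 26 to 81 counts per library, held 1.77 ± 0.107 CPM in control and 1.87 ± 0.492 CPM in KO (SD, n = 3), a log2 difference of 0.089 (SE 0.317, adjusted p = 0.836). Its sign turned without KO replicate 1.

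Slbp did not pass the test either. It held 117, 139 and 87.5 CPM in control and 104, 99.8 and 85.4 CPM in KO, and control replicate 3 lay among the KO libraries. The log2 fold change was −0.24 (SE 0.170; adjusted p = 0.267 by edgeR). Without control replicate 3 it was −0.47 and called (adjusted p = 0.0232), and without control replicate 2 it was −0.093.

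Counts of replication-dependent histone genes, the class whose stem-loop mRNA SLBP binds, were much lower in KO. The labels name total RNA and do not say how it was selected for the libraries, so the counts may come from stem-loop or polyadenylated forms. The 62 tested replication-dependent histone genes summed to 11307 to 23826 CPM in control and 3969 to 8178 CPM in KO. Of these, 57 were called lower and 2 higher, against 22.9% lower and 23.2% higher over all tested genes. When any library was left out, 40 to 59 were called lower and at most 1 higher. Slbp mRNA per 1000 CPM of these histones was 6.78, 5.83 and 7.74 in the control libraries and 12.8, 16.8 and 21.5 in the KO libraries. All KO libraries lay above all control libraries in this proportion, whose mean in KO was 251% of control. The 9 variant genes together held 1869 ± 396 CPM in control and 1279 ± 102 CPM in KO (SD, n = 3), or 68.4% of control, while the replication-dependent genes were at 34.5%. The variant sum includes H2afx, which has the stem-loop and was at 44.3% of control, so it is not a sum of genes without the stem-loop. In each library the replication-dependent genes summed to more than the variants, by 7.45 to 10.4 times in control and 3.41 to 6.24 times in KO. These proportions were chosen after the values were seen and are given without a test.

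**Figure D3:**
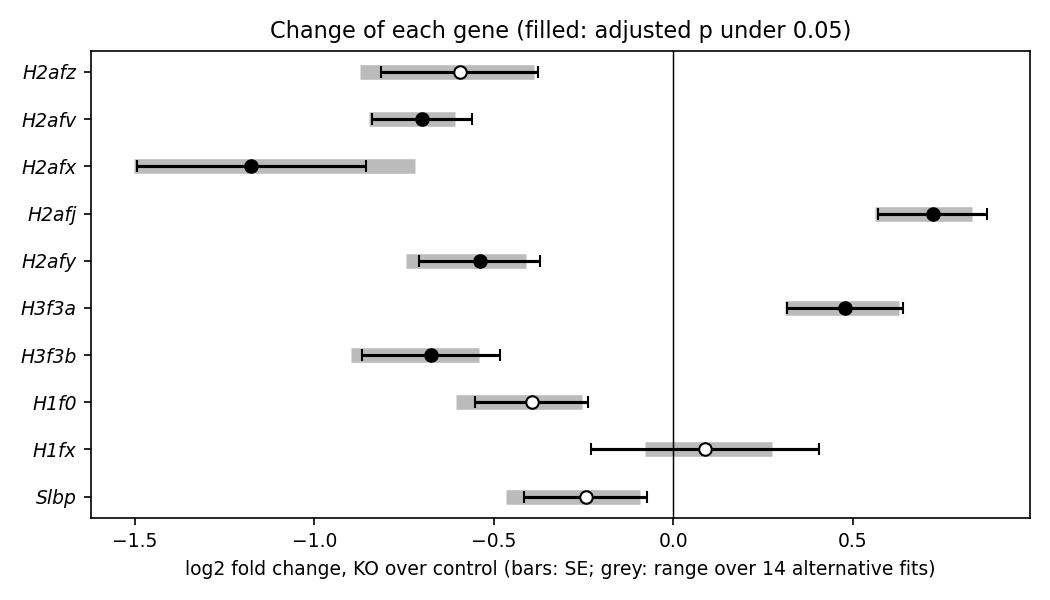
Log2 fold change of KO over control for each gene (points, filled where the adjusted p was under 0.05), with bars of 1 SE and grey bands for the range over 14 alternative fits. The band crosses 0 only for H1fx, while those of H2afj and H3f3a lie wholly above 0 and the other 7 wholly below.

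Per length, H2afx, H2afz and H3f3b had the highest levels, in an order that depends on the length used. On the scale of CPM per kilobase of annotated exon, control levels were 226 ± 111, 213 ± 65.0 and 204 ± 45.1 for these genes (SD, n = 3), which did not differ beyond their spread. H1f0 (52.3 ± 4.17), H2afy (40.1 ± 8.73), H3f3a (32.1 ± 6.05) and H2afv (26.4 ± 2.91) followed, each within or close to the spread of its neighbour. Slbp (18.8 ± 4.24) and H2afj (18.2 ± 2.19) were level with each other, and H1fx (1.46 ± 0.088) was lowest. In KO, H2afz (141 ± 17.4), H3f3b (128 ± 20.9) and H2afx (99.9 ± 21.7) led, and H3f3a (44.7 ± 6.42) stood beside H1f0 (39.8 ± 8.20). With the longest coding transcript as the length, a choice added after the values were seen, the order in control changed. H2afz led (354 ± 108), before H3f3b (241 ± 53.4) and H2afx (226 ± 111), H2afy moved up to rank 4 (133 ± 29.1) and Slbp to rank 5 (60.0 ± 13.5), and H1f0 moved down to rank 6.

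The proliferation state of the libraries was set beside these genes as a description. All 19 genes of an S phase and proliferation list were called lower in KO (median log2 fold change −1.22). The background share called lower was 22.9% of all tested genes. With 1 library left out, 13 to 19 of the listed genes were called lower. The sum of the 19 genes was 4136 to 6534 CPM in control and 1792 to 3146 CPM in KO. Within control, the sum was highest in replicate 2 and lowest in replicate 3, and 6 of the 10 genes had that order of libraries (H2afz, H2afx, H3f3a, H3f3b, H1f0 and Slbp). Within KO, the sum was highest in replicate 1 and lowest in replicate 3, an order shared by 4 genes (H2afz, H3f3b, H1fx and Slbp). Only 3 of the 10 genes (H2afz, H3f3b and Slbp) had the order of the sum in both groups, and H1f0 had the reverse order in KO. The share of all tested genes with these orders was not computed, so the counts do not set the 10 genes apart. The part of proliferation in the changes of the variant genes was not tested.

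**Figure D4:**
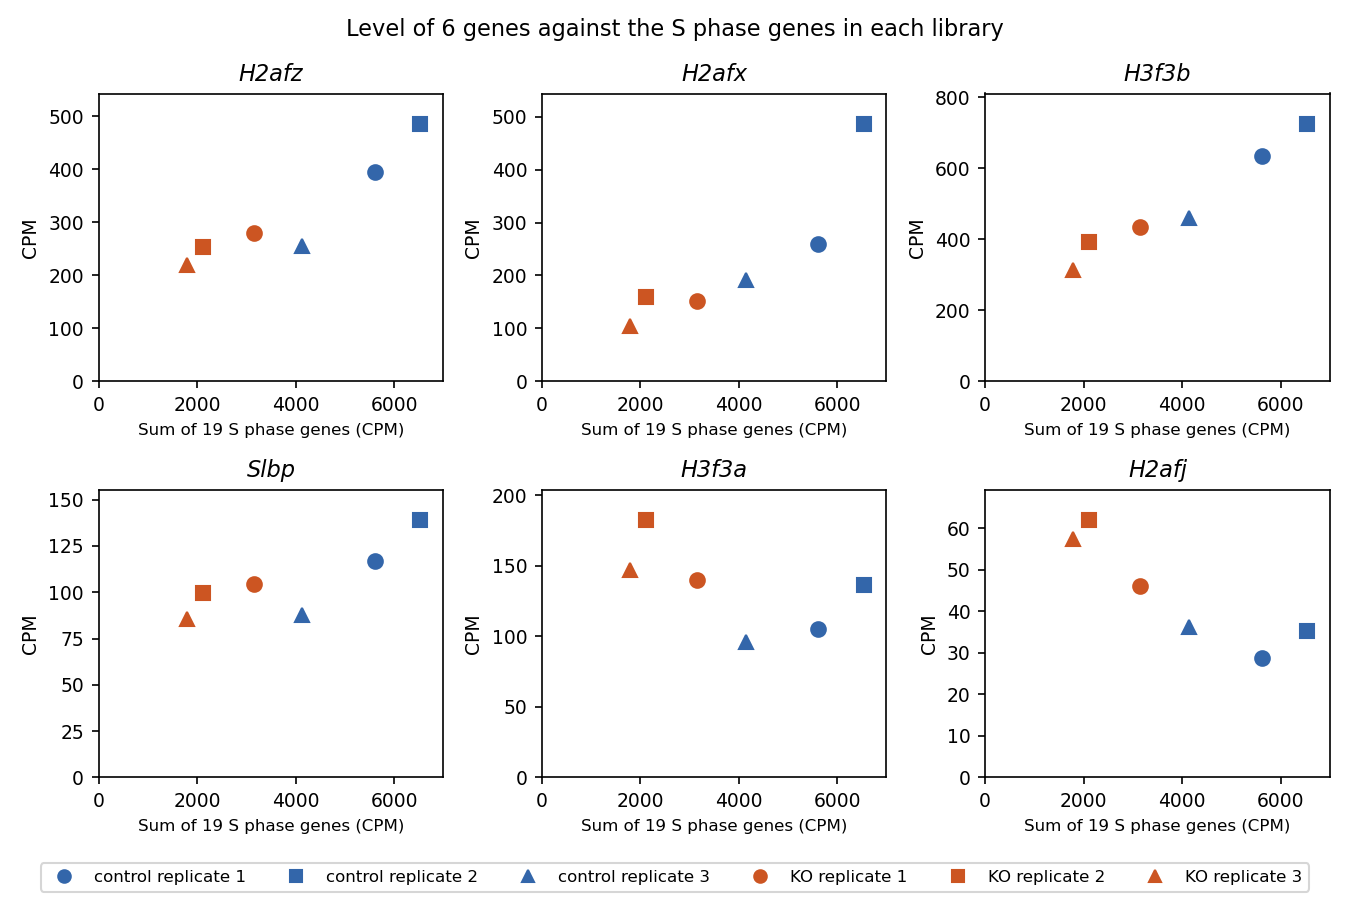
TMM-scaled CPM of 6 genes (vertical axes, from 0) against the summed CPM of 19 S phase and proliferation genes (horizontal axes) in each library, control in blue and KO in orange. H2afz, H2afx, H3f3b and Slbp are highest in control replicate 2, which also has the highest sum (6534 CPM), while H2afj and H3f3a are highest in KO replicate 2.

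The genes whose levels followed a variant gene most closely over the 6 libraries were named. They are no more than a description, since the libraries form 2 groups and differ in depth. Among 9486 genes of at least 5 CPM, H2afz was followed by Pcna, the DNA polymerase clamp (Pearson r = 0.9998 of log2 CPM), Rnps1 (0.9975) and Lsm8 (0.9963), and 345 genes had r above 0.95. H3f3b was followed by Rpf1 (0.9992), Gfer (0.9984) and the RNA exosome gene Exosc7 (0.9976), with 757 genes above 0.95. Slbp was followed by Caprin1 (0.9956), Magoh (0.995) and Ecd (0.9938), with 146 genes above 0.95. Pcna fell by 0.65 on the log2 scale (edgeR adjusted p = 0.0468), from 410 ± 135 to 261 ± 35.6 CPM (SD, n = 3), and 19.1% of its stretches occur in its pseudogene Pcna-ps2. The Pcna call was lost when any single library other than control replicate 3 was left out.

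Among other variant genes, Cenpa was well expressed and the rest were rare or had no counts. Cenpa, the centromeric H3 variant, fell from 121 ± 19.3 to 51.2 ± 15.7 CPM (SD, n = 3). The log2 fold change was −1.23 (SE 0.221, adjusted p = 0.00258 by edgeR). H2afy2, the macroH2A2 gene, had at most 42 counts in a library and was not called (−1.44, adjusted p = 0.0774). The oocyte linker histone gene H1foo had 0 counts in every control library and 2 to 5 in KO, too few for the filter of the main fit. Without a filter on low counts, 1 gene of the list of other variant genes was called higher, against 0 in the main fit. H2afb1, H2afb2, H2afb3, H1fnt and H2al2a, of the germ line, had no counts.

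The enzymes and chaperones that place the variants were read from lists of known factors. For H3.3, 2 of 8 genes fell and 1 rose (median log2 fold change −0.16), beside 22.9% lower and 23.2% higher over all tested genes, so the share that fell is near the background. Hira, of the H3.3 chaperone complex, fell by 0.58 (18.3 ± 1.46 to 12.3 ± 1.81 CPM, SD, n = 3; edgeR adjusted p = 0.0185), while Ubn1 of the same complex rose by 0.58 (107 ± 3.20 to 160 ± 5.78 CPM; adjusted p = 0.00213). Dek fell by 0.71 (adjusted p = 0.00548). Hira is uncertain, since 42.0% of its stretches lie in Gm28539, which overlaps it on the same strand, and its call was lost without control replicate 1, KO replicate 2 or KO replicate 3. Atrx (−0.21), Daxx (0.28) and Asf1a (−0.40) were not called.

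For H2A.Z, 5 of 12 exchange genes fell and none rose (median log2 fold change −0.31), where 22.9% of all tested genes were called lower and 23.2% higher. Ruvbl2, an ATPase shared by several remodelling complexes, fell from 162 ± 36.2 to 63.7 ± 14.9 CPM (SD, n = 3), a log2 value of −1.35 (adjusted p = 0.00138 by edgeR). Anp32e, which removes H2A.Z from nucleosomes, fell by 0.94 (429 ± 27.7 to 223 ± 36.2 CPM; adjusted p = 0.00121), and Ino80 fell by 0.77 (adjusted p = 0.00204). The scaffold ATPases Srcap (−0.091) and Ep400 (−0.24) were not called.

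Of 9 genes that act on or through H2A.X, 5 fell and 1 rose (median log2 fold change −0.53), against a background of 22.9% lower and 23.2% higher. The kinases that phosphorylate H2A.X were all lower in KO. Atr fell from 87.7 ± 6.81 to 28.0 ± 6.51 CPM (SD, n = 3), a log2 value of −1.65 (adjusted p = 0.000258 by edgeR), Atm fell by 1.19 (adjusted p = 0.00207) and Prkdc fell by 1.01 (adjusted p = 0.000688). Mdc1, the reader of phosphorylated H2A.X, fell by 0.74 (adjusted p = 0.00189). Eya3, a phosphatase, rose by 0.30 (adjusted p = 0.0378), a call that only 5 of the 14 alternative fits kept (it was lost without any single library other than control replicate 2), and Rnf8 (−0.13) and Rnf168 (0.15) were not called.

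Of 14 tested genes that process or degrade histone mRNA, 3 fell and 3 rose (median log2 fold change −0.069), shares near the 22.9% lower and 23.2% higher of all tested genes. Without KO replicate 2 the counts were 1 and 1, and without control replicate 1 only 1 was called higher. With library size alone as the scaling 1 was called lower, and with the replicate block 5. Lsm11, a protein of the U7 particle that cuts histone pre-mRNA, fell from 18.4 ± 1.81 to 9.70 ± 2.02 CPM (SD, n = 3), a log2 value of −0.92 (adjusted p = 0.00454 by edgeR). Lsm10 of the same list went the other way, up by 0.55 (adjusted p = 0.0266 by edgeR), a call kept in 9 of 14 alternative fits. Zcchc6, a uridylyl transferase that acts in decay, rose by 0.64 (116 ± 17.7 to 180 ± 11.6 CPM; adjusted p = 0.00514), and the cap-binding gene Ncbp2 rose by 0.60 (adjusted p = 0.0174). The Ncbp2 call was lost without control replicate 1 or KO replicate 2. Npat, a coactivator of histone genes (−0.32, adjusted p = 0.0394), and the exonuclease gene Eri1 (−0.39, adjusted p = 0.0204) were also lower. The Npat call held in 5 of 14 alternative fits, with losses for every library left out except control replicate 3, and the Eri1 call was lost without KO replicate 2 and with library size alone as the scaling. A list of replication-coupled histone chaperones and genes that act with them fell more widely. Of its 9 genes, 7 were lower and none higher (median −1.08), against a background of 22.9% lower. Among the 7 were the CAF-1 subunit genes Chaf1b (−1.32, edgeR adjusted p = 0.00361) and Chaf1a (−1.14, adjusted p = 0.00490). The histone acetyltransferase gene Hat1 (−1.22, adjusted p = 0.00318) was another. Chaf1a shares 49.7% of its stretches with Ubxn6 on the opposite strand and is uncertain.

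**Figure D5:**
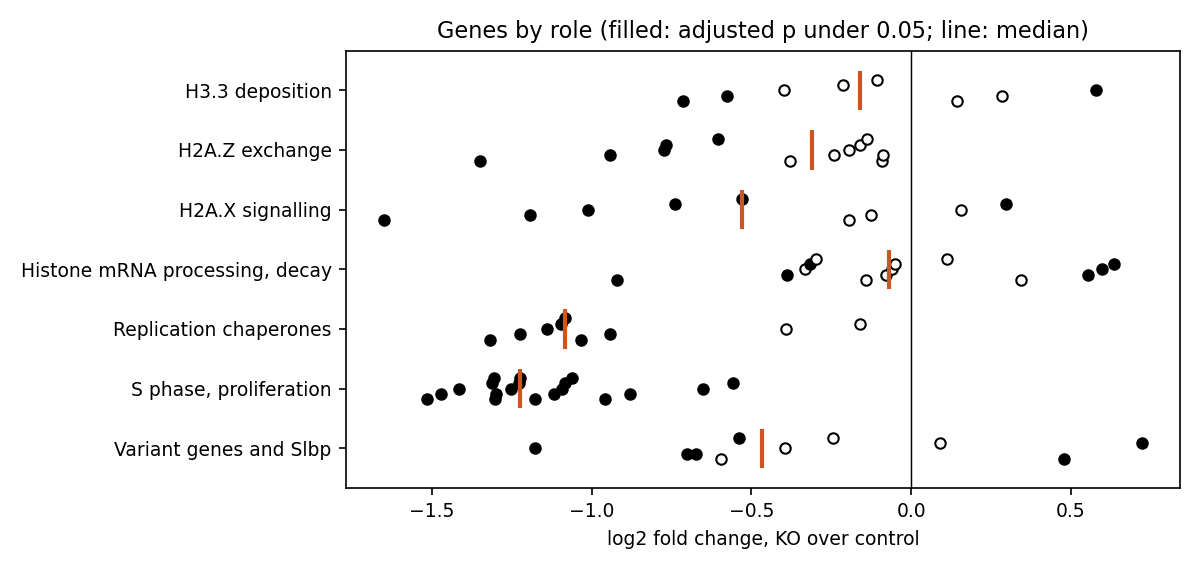
Log2 fold change of KO over control for the tested genes of each list (points, filled where the adjusted p was under 0.05) with the list's median as a line. Of the 7 lists drawn, which leave out the replication-dependent histones (median −1.53) and the other variant genes, the S phase list (median −1.22) and the replication chaperones (−1.08) lie lowest, and the variant genes with Slbp (−0.47) spread on both sides of 0.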

How the data were processed

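RNA-seq of 6 libraries, 3 control and 3 KO, was analysed from 1 table matched to samples by the sample descriptions. The authors deposited whole-number counts per gene symbol. Per the submitters' processing notes, the tools were STAR, featureCounts and DESeq2 and the build mm10, and versions, annotation, strand and multi-mapping settings are not given in the sources used here. No line lacked a gene name. Counts were tested with edgeR 4.0.16 (R 4.3.3; quasi-likelihood, TMM factors, filterByExpr, no covariate), and p-values were adjusted by Benjamini-Hochberg over 14268 genes, at a biological coefficient of variation of 0.212. A standard error is the absolute log2 fold change over the square root of F. Depth of 16489813 to 51271226 counts limits the precision of rare genes. The procedure was tested on simulated data in which far fewer genes changed than were called here, equally often up and down. That setting does not test the scaling where 46.1% of genes are called.

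Positions, exon lengths, overlaps and shared 50-base stretches came from GENCODE M21 (GRCm38). The genes and lists were chosen with earlier results of these data known. Named genes were all 10 genes, up to 3 called genes per list with the largest change, at least 5 CPM and no overlap of groups, the 3 genes most correlated with each of Slbp, H2afz and H3f3b, and Rtf1; other list genes were named after their values were seen. Replicate numbers pair the libraries by the data only: deviations from the group means correlated across genes at 0.27, 0.13 and 0.38 for equal numbers, with a higher value between control replicate 2 and KO replicate 1 (0.20) than within number 2. Alternatives were other scalings, filters, DESeq2 1.42.0, the replicate block, the libraries numbered 1 and 2 alone, and each library left out.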

Additional observations from a re-analysis of the deposited data

How the results depend on the processing

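All 10 genes kept their direction in all 14 alternative fits, apart from H1fx, which turned to −0.079 without KO replicate 1. The whole-table count of 6574 calls ranged from 4460 to 7050 when 1 library was left out and from 6351 to 7628 otherwise. Outside the fits that left out a library, H2afz became called with upper-quartile factors (−0.61, adjusted p = 0.0368), without a filter (−0.61, adjusted p = 0.0232), by DESeq2 (−0.62, adjusted p = 0.0259), with the replicate block (−0.55) and with the libraries numbered 1 and 2 alone (−0.73). H1f0 became called without a filter (−0.41), with the block (−0.41) and with those libraries alone (−0.60). H3f3a lost its call with DESeq2 size factors (0.46), in the DESeq2 test (0.45, adjusted p = 0.0653) and with the libraries numbered 1 and 2 alone (0.41), which left 1 gene called higher in each, and H2afy lost it with those libraries alone (−0.41). The replicate block changed no other call of the 10 genes.

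Leaving out each library in turn gave log2 fold changes of −0.87 to −0.39 for H2afz, −0.85 to −0.63 for H2afv, −1.50 to −0.72 for H2afx, 0.56 to 0.83 for H2afj, −0.74 to −0.43 for H2afy, 0.31 to 0.63 for H3f3a, −0.90 to −0.54 for H3f3b, −0.54 to −0.25 for H1f0, −0.079 to 0.27 for H1fx and −0.47 to −0.093 for Slbp. The number called lower ran from 2 to 7 and the number called higher from 1 to 2. The log2 ratio of H3f3a to H3f3b differed by 1.05 to 1.33, that of H2afz to H2afv by −0.12 to 0.28, with −0.016 without KO replicate 1, and that of H1f0 to H1fx by −0.82 to −0.13. Over the 3 equal-numbered pairs (replicate block), the H3.3 ratio differed by 1.15 (exact sign-flip test, two-sided, p = 0.25, the smallest possible). Fewer samples enter each of these fits, and the cause of single lost calls was not tested. Counts of the companion lists stayed within 1.5 times in 198 of 224 recomputations. This includes counts of 0 that stayed 0, for which no ratio exists. H1fx had the fewest counts of the 10 genes, at 26 to 81 counts per library.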
